A study of Mus musculus with 8 samples.

Results

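The matrix metalloproteinases, their relatives the ADAM and ADAMTS proteases, the ADAMTS-like proteins and the tissue inhibitors of metalloproteinases (TIMPs) were followed in mouse mammary gland over a day after 17β-estradiol (E2). The members were every gene whose annotated symbol is Mmp, Adam, Adamts or Adamtsl followed by a number, or Timp1 to Timp4. This rule uses names and no measured value. It found 70 genes of 18193 on the array: 18 Mmp, 28 Adam, 15 Adamts, 5 Adamtsl and 4 Timp genes. Each gene was read from its probe set with the highest mean, and 32 members had more than 1 probe set. Of the 70 members, 41 had a mean log2 level of at least 7.72 (an intensity of 211, the 40th percentile of all genes) and entered the tests, while 29 lay below it.

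The arrays held inguinal mammary gland tissue of virgin Mus musculus aged 12 to 13 weeks. All mice, those of the vehicle groups included, had been gonadectomized (GDX), which removes the gonads as a source of sex steroids. E2 was given subcutaneously 1, 3, 6, 12, 18 or 24 h before the tissue was taken, with 1 array per time, and 2 control groups that received a vehicle solution gave 1 array each, both titled 24 h. The times come from the sample titles, whereas every description reads 24 h. Vehicle arrays at 1 to 18 h were not analysed here, so the effects of E2, of the injection and of the hour of the day cannot be told apart there. The dose is given with conflicting units and is not stated here, and the sources used here do not say how many mice an array stands for.

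Matrix metalloproteinases are zinc proteases that cut collagens, gelatins and other matrix proteins. ADAM proteases sit in the cell membrane and release ligands and receptors from the cell surface, ADAMTS proteases are secreted and cut proteoglycans and procollagens, and TIMPs block all of these to different degrees. In the mammary gland this system is known for shaping duct growth and branching, which depend on ovarian hormones, and for tissue remodelling after weaning.

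Adamts1 differed most from vehicle: it was high on the 1, 3 and 6 h arrays and back at the vehicle level from 12 h. The 250 bases upstream of its start are shown with those of Timp3, which was also highest at 3 and 6 h, and those of Mmp3, one of the genes of the Mmp cluster on chromosome 9. The sequences are from the RefSeq promoter table of build GRCm38.p6, read 5′ to 3′ on the gene's strand. Capitals mark matches on either strand to the GC box (GGGCGG) in Adamts1 and Timp3 and to the AP-1 motif (TGANTCA) in Mmp3.
Adamts1, chr16:85803114-85803363, minus strand: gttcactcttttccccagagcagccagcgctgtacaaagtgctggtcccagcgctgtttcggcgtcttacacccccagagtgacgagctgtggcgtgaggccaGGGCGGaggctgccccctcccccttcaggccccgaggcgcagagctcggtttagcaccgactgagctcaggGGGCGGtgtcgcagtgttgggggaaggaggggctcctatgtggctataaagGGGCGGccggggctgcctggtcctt
Timp3, chr10:86300162-86300411, plus strand: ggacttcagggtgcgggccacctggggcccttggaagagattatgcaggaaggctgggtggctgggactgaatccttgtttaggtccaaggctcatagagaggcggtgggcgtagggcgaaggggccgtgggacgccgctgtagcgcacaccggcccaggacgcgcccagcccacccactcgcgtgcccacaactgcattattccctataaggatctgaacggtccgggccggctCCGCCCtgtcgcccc
Mmp3, chr9:7445572-7445821, plus strand: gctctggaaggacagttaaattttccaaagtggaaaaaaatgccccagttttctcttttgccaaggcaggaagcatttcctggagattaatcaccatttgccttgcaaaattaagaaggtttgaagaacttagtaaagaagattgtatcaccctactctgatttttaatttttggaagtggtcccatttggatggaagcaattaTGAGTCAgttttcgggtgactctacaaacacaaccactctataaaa

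Upstream windows were found for 41 of the 70 members. The Adamts1 window held 3 GC boxes and the Timp3 window held 1. G and C made up 65.6% of both these windows and 37.6% of the Mmp3 window. The median over all windows was 52.4%. A GC box was found in 46.3% of members with a window and in 32.7% of the 32851 windows of all genes. Here and below a member counts once if any window of it matches, whereas the share over all genes counts each window. The full palindrome of the estrogen response element and the CRE motif TGACGTCA were found in 0 of the 41 members, and in 0.0639% and 1.55% of all windows. Adamts1, Timp3 and Mmp3 also held no TGTTCT, the half-site of progesterone and glucocorticoid receptors, which 16.1% of all windows hold. The AP-1 motif was found in 10 of the 41 members, or 24.4%, against 6.75% of all windows. Of these 10 genes, 8 are among the 9 Mmp members on chromosome 9 (Mmp1a, Mmp1b, Mmp3, Mmp7, Mmp10, Mmp12, Mmp13 and Mmp20, without Mmp8), and the others are Adam19 and Adam25. The motifs do not overlap each other in the printed windows, and a match is a description of letters only.

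Among the proteoglycan-cleaving ADAMTS genes, of which 6 of 7 were tested, Adamts1 and Adamts5 stood farthest from vehicle, in opposite directions and both at 3 h. Adamts1, a secreted protease that cuts versican and aggrecan, is known from the progesterone-dependent remodelling of the ovarian follicle at ovulation. Its intensity was 790.2 and 730.02 on the vehicle arrays, 1154 (1 h), 1678 (3 h), 1147 (6 h), 805 (12 h), 767 (18 h) and 753 (24 h). All 3 arrays from 1 to 6 h lay above both vehicle arrays, the 12 h array lay just above both, and the 18 and 24 h arrays lay between them. Adamts1 was 1.52-fold of the vehicle mean at 1 h, 2.21-fold at 3 h and 1.51-fold at 6 h, while the vehicle arrays differed by 0.11 on the log2 scale.

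Adamts5, the main aggrecanase of mouse cartilage, is the next protein-coding gene to Adamts1 on chromosome 16. Its intensity was 1916 and 1891 on the vehicle arrays, 1819 (1 h), 1249.9 (3 h), 1991 (6 h), 1825 (12 h), 1905 (18 h) and 1906 (24 h). The 3 h array alone stood apart, at 0.657-fold of the vehicle mean, and the arrays at 18 and 24 h lay between the vehicle arrays. Of its 4 probe sets, the 3 above the level filter lay between -0.63 and -0.60 on the log2 scale at 3 h, and between -0.02 and 0.06 at 6 h. The fourth, with a mean log2 level of 4.36, lay at -0.03 at 3 h. Adamts1 has 1 probe set, so its values have no such check within the array.

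With 1 array at a time there is no replicate check of a single time. Members were therefore counted where an E2 array differed by 1.5-fold or more from each of the vehicle arrays, one way. This held for Adamts1 at 3 h, among 0.568% of genes that were higher, and for Adamts5 at 3 h, among 0.229% of genes that were lower. No other tested member passed at any time: 2 of 41 members passed at some time, or 4.88%, against 1.47% of all genes. Counted as pairs of a member and a time, 2 of 246 passed, against 0.42% of all such pairs. Without vehicle 1 the count of pairs was 8, or 3.25%, against 0.912% of all pairs, which added Adamts1 at 1 and 6 h, Mmp12 at 3 and 24 h, and Mmp19 and Timp1 at 6 h. Without vehicle 2 it was 4, or 1.63%, against 0.599% of all pairs, which added Adam8 and Mmp12 at 12 h. A limma fit with 7 group means has 1 residual degree of freedom, from the vehicle pair. It shrinks the spread of that pair toward a mean-variance trend over all tested genes, so its SE rests largely on other genes. The fit takes this spread for every lone array, so it holds no spread of an E2 time and is no replicate check of one. Under that assumption Adamts1 stood at 1.14 ± 0.0871 (SE; limma adjusted p = 0.0113) and Adamts5 at -0.61 ± 0.0771 (adjusted p = 0.0444) on the log2 scale at 3 h, where 0.595% of all genes passed. Adamts1 did not pass at 1 h (adjusted p = 0.236), where 0.0641% of all genes passed, or at 6 h (adjusted p = 0.0811), where 0.366% did.

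**Figure D1:**
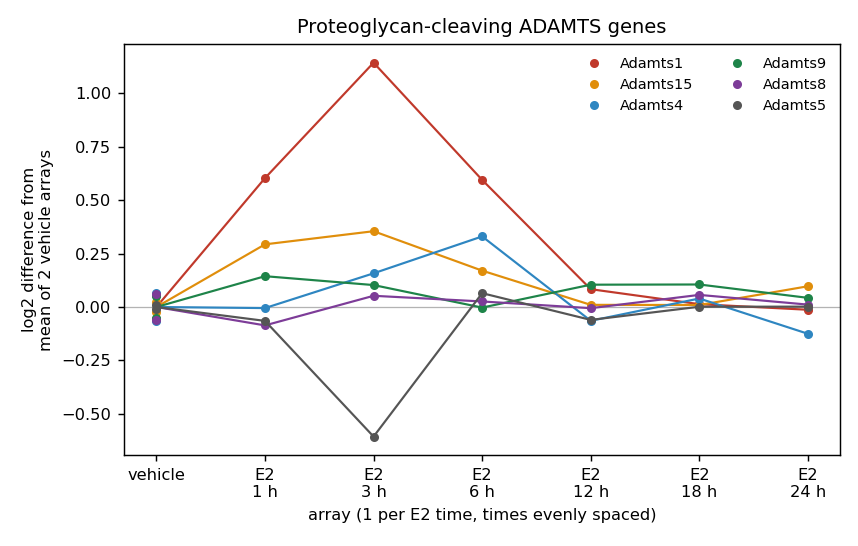
log2 difference of the intensity from the mean of the 2 vehicle arrays (y axis) on each array (x axis) for the 6 tested proteoglycan-cleaving ADAMTS genes; points are single arrays, and the line starts at the vehicle mean. Adamts1 reaches 1.14 and Adamts5 -0.61 at 3 h, and all 6 genes lie within 0.13 of the vehicle mean from 12 h on.

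Adamts15, another versican-cleaving protease, had intensities of 527 and 511 on the vehicle arrays, 636 (1 h), 664 (3 h), 584 (6 h), 523 (12 h), 522 (18 h) and 555 (24 h). It shared the order of Adamts1, highest at 3 h and above both vehicle arrays at 1, 3 and 6 h, with smaller differences of 0.29, 0.35 and 0.17 on the log2 scale. Adamts4, the other well-known aggrecanase, lay at 0.33 at 6 h and 0.16 at 3 h, and between -0.12 and 0.04 at the other times. Its other probe set, which has a mean below the level filter, lay at 0.45 at 3 h and 0.40 at 6 h. Adamts8 and Adamts9 stayed between -0.09 and 0.14 at every time. Another Adamts9 probe set above the level filter lay at 0.24 at 1 h. Of the other ADAMTS genes, 2 of 7 were tested: Adamts10, which binds fibrillin, lay between -0.04 and 0.04, and Adamts12, which cuts cartilage oligomeric matrix protein, at -0.19 at 6 h and -0.25 at 12 h, below both vehicle arrays.

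**Figure D2:**
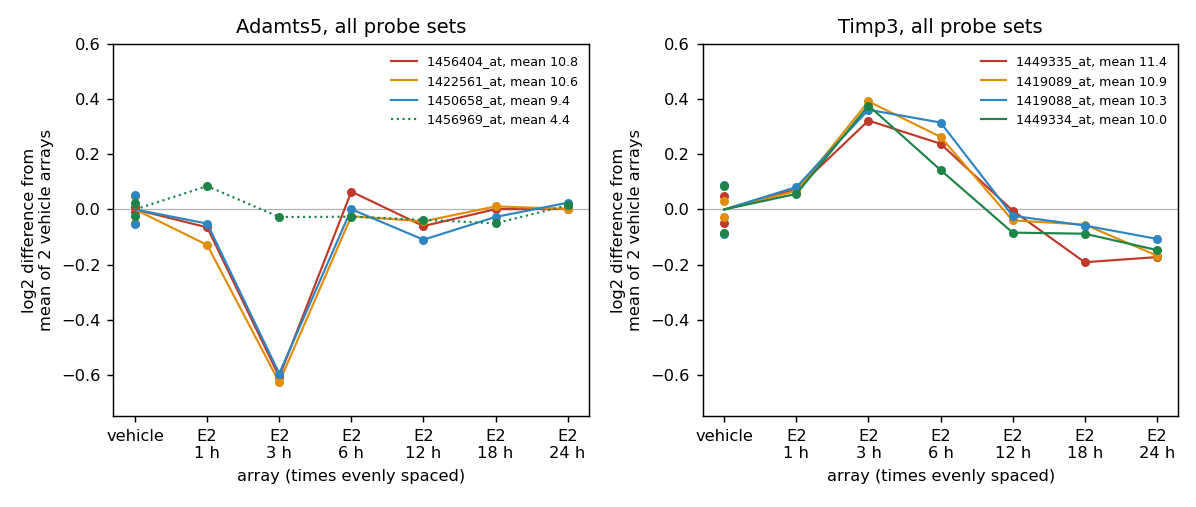
log2 difference from the mean of the 2 vehicle arrays (y axis) by array (x axis) for every probe set of Adamts5 (left) and Timp3 (right), with each probe set's mean log2 level in the legend and a dotted line for the probe set below the level filter. Of 4 Adamts5 probe sets 3 lie between -0.63 and -0.60 at 3 h alone, and all 4 Timp3 probe sets peak at 3 h, between 0.32 and 0.39.

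To compare spans of time, the E2 arrays were set in an early window (1, 3 and 6 h) and a late window (12, 18 and 24 h). These windows of 3 arrays each were set against 2 vehicle arrays in 1 limma fit across all 10916 tested genes. The 3 arrays of a window stand for different times and are not replicates of a condition. Change within a window therefore counts as spread. The early window against vehicle asked which members differed over the first hours. Adamts1 exceeded vehicle by 0.78 ± 0.141 (SE, log2 scale; adjusted p = 0.345), Adamts15 by 0.27 ± 0.0634 (adjusted p = 0.5) and Timp3 by 0.21 ± 0.0824 (adjusted p = 0.851). Adamtsl5, an ADAMTS-like protein without a protease domain, lay at -0.18 ± 0.0788 (adjusted p = 0.896), but at -0.07 without vehicle 1 and at -0.30 without vehicle 2. None passed: 0 of 41 members and 0% of all genes reached an adjusted p below 0.05. At an unadjusted p below 0.05 there were these 4 members, or 9.76%, against 5.38% of all genes. Arrays did not overlap between the early window and vehicle in 11 members, or 26.8%, against 19.9% of all genes. Adamts1 passed without the 1 h array (0.87, adjusted p = 0.0454, among 0.449% of all genes) and without the 3 h array (0.60, adjusted p = 0.0294, among 0.0275%), and in no other fit that left 1 array out. Skeletal muscle markers (19 of 22 tested) lay above the vehicle mean at every E2 time, by 0.65 to 1.25 on average from 1 to 6 h. Their summed intensity was 24823 to 36859 in the early window, 18371 to 29641 in the late window and 13528 to 17802 on the vehicle arrays. With their mean as a covariate Adamts1 exceeded vehicle by 1.03 ± 0.215 (SE) in the early window (adjusted p = 0.0967) and Timp3 by 0.38 (adjusted p = 0.191). Adamtsl5 lay at -0.32 (adjusted p = 0.225). The marker means did not overlap between the early and the vehicle arrays, so this fit can hardly tell the markers and the window apart.

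The late window against vehicle asked which members differed from 12 h on. The lower members included Mmp14, the membrane-type protease that cuts collagen and activates Mmp2, at -0.26 ± 0.0854, and Mmp2, the gelatinase of stromal cells, at -0.14 ± 0.0603. Adam19, a membrane sheddase, lay at -0.17 ± 0.061 and Adamtsl4, a fibrillin-binding matrix protein, at -0.27 ± 0.134. Adam23, a catalytically inactive adhesion protein of the nervous system, lay 0.17 ± 0.0638 above vehicle and Mmp10, a stromelysin, 0.19 ± 0.0811 above. One vehicle array decided the size for Adam19, at -0.09 without vehicle 1, and for Mmp10, at 0.32 without vehicle 1 and 0.07 without vehicle 2. With the skeletal muscle markers as a covariate Mmp14 lay at -0.47 (adjusted p = 0.146), Mmp2 at -0.24 (adjusted p = 0.525) and Mmp10 at 0.07 (adjusted p = 0.947), and with the B lymphocyte markers Mmp10 lay at 0.12. The muscle marker means were 0.21, 0.84 and 0.94 on the late arrays and 0.19 and -0.19 on the vehicle arrays. They did not overlap, so the muscle fit can hardly tell the markers and the late window apart. The adjusted p was between 0.634 and 0.648 for these 6 genes without a covariate, and 0 of 41 members and 0% of all genes passed. At an unadjusted p below 0.05 there were 5 members, or 12.2%, against 7.6% of all genes, and arrays did not overlap in 15 members, or 36.6%, against 24.4% of all genes.

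The late against the early window is the comparison that uses no vehicle array for the difference itself. Adamts1 fell by 0.75 ± 0.126 (SE) on the log2 scale in the late window relative to the early one (adjusted p = 0.0406), with every late array below every early array. It was the only member called, 1 of 41 or 2.44%, against 0.55% of all genes. Timp3 lay at -0.33 ± 0.0737 (adjusted p = 0.0828), Adamts15 at -0.23 ± 0.0567 (adjusted p = 0.101), Mmp2 at -0.19 ± 0.054 (adjusted p = 0.139) and Adam23 at 0.27 ± 0.0571 (adjusted p = 0.0748). At an unadjusted p below 0.05 there were 12 members, or 29.3%, against 19.1% of all genes, and arrays did not overlap in 13 members, or 31.7%, against 24% of all genes. The Adamts1 call ended without vehicle 1 (adjusted p = 0.0559), vehicle 2 (0.0557), the 12 h array (0.0606), the 18 h array (0.219) or the 24 h array (0.139), with differences between -0.78 and -0.73. It also ended with quantile normalization, at -0.70 (adjusted p = 0.0603), and with B lymphocyte markers as a covariate, at -0.70 (0.104). With robust variance estimates (0.0753) and when genes were read as the mean of their probe sets (0.0658) it ended at an unchanged difference of -0.75. B lymphocyte markers (10 of 11 tested) averaged between -0.14 and 0.12 in the early window, and 0.14, -0.43 and -0.44 at 12, 18 and 24 h. With the muscle markers as a covariate Adamts1 lay at -0.82 (adjusted p = 0.0119), 1 of 6 members that passed, or 14.6%, among 10.3% of all genes. With the B lymphocyte markers 0.302% of all genes passed, and of the members only Mmp14. Timp3 passed without the 1 h array, at -0.40 (adjusted p = 0.0233), where 2.13% of all genes did.

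**Figure D3:**
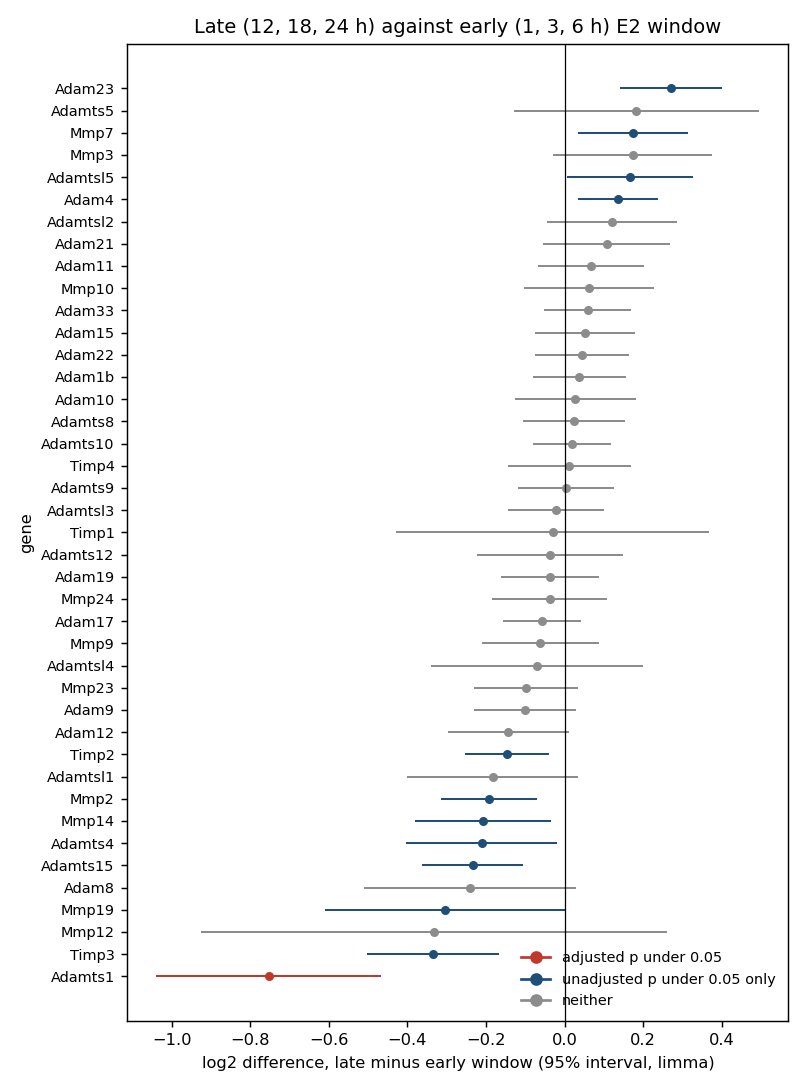
log2 difference between the late E2 window (12, 18 and 24 h) and the early E2 window (1, 3 and 6 h) for the 41 tested members, with 95% intervals from limma (x axis), sorted by size (y axis). Adamts1 at -0.75 is the only gene with an adjusted p below 0.05, and 11 further genes have an unadjusted p below 0.05 only.

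The median of the members lay close to that of all genes. It was 0.01 in the early window against vehicle, -0.02 in the late window against vehicle and -0.03 for late against early, beside 0.01, -0.01 and -0.03 for all tested genes. By single time the lowest median was -0.06, at 12 h, beside 0.01 for all genes, and the highest was 0.04, at 24 h, beside -0.02. The vehicle arrays differed from each other by a similar amount. The median of vehicle 1 minus vehicle 2 was 0.04 for the members, 30 higher and 11 lower, beside -0.01 for all genes. Over the 8 arrays the range of a member spanned more than 0.5 on the log2 scale in 10 members, or 24.4%, against 6.71% of all genes. These were Adamts1, Adamts5, Adamtsl1, Adamtsl4, Mmp12, Mmp14, Mmp19, Timp1, Timp3 and Adam8. The range includes the vehicle arrays, which alone lay 0.64 apart for Mmp12, 0.54 for Timp1, 0.44 for Mmp19 and 0.41 for Adam8. For the others they lay up to 0.14 apart.

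**Figure D4:**
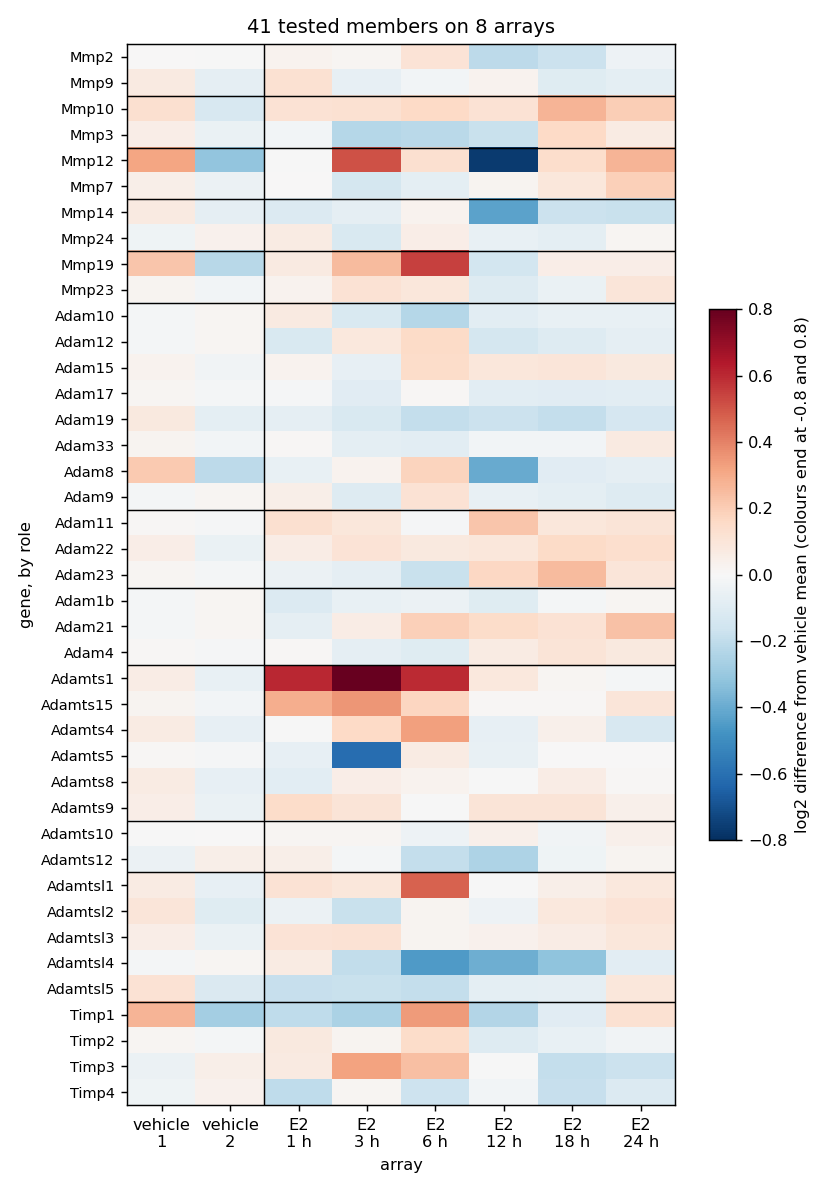
log2 difference from the mean of the 2 vehicle arrays (colour) for the 41 tested members (rows, grouped by role with a line between roles) on the 8 arrays (columns). Adamts1 is red from 1 to 6 h, Adamts5 is blue at 3 h alone, and Mmp12, Mmp19, Timp1 and Adam8 differ between the vehicle arrays themselves.

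Of the inhibitors, Timp3, which binds to the matrix and blocks Adam17 and the aggrecanases as well as matrix metalloproteinases, lay farthest above vehicle at 3 h. Its intensity was 2487 and 2660.0 on the vehicle arrays, 2707 (1 h), 3216 (3 h), 3034 (6 h), 2565 (12 h), 2253 (18 h) and 2282 (24 h). On this probe set, its brightest, the 1, 3 and 6 h arrays lay above both vehicle arrays and the 18 and 24 h arrays below both. At 1 h the other probe sets at 0.06 and 0.08 lay between their vehicle arrays. At 18 h this held for the probe set at -0.06. All 4 probe sets lay between 0.32 and 0.39 at 3 h, between 0.14 and 0.32 at 6 h, and between -0.17 and -0.11 at 24 h. In the fit with 7 group means Timp3 did not pass at 3 h (adjusted p = 0.336).

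Timp2, which takes part with Mmp14 in the activation of Mmp2, lay between 0.02 and 0.15 in the early window and between -0.10 and -0.03 in the late one. Timp4 lay between -0.20 and 0.02. Timp1, the inhibitor most often induced in inflamed tissue, had intensities of 1085 and 746 on the vehicle arrays, 781 (1 h), 756 (3 h), 1141 (6 h), 765 (12 h), 845 (18 h) and 979.9 (24 h). Every E2 array but that at 6 h lay between the vehicle values, which differed by 0.54 on the log2 scale.

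Mmp2 and Mmp14 were lowest at 12 h. Mmp14 had intensities of 2961 and 2679 on the vehicle arrays, 2605 (1 h), 2682 (3 h), 2869.6 (6 h), 2092 (12 h), 2499 (18 h) and 2493 (24 h). The late arrays all lay below both vehicle arrays, and the 3 probe sets of Mmp14 agreed at 12 h, between -0.43 and -0.37. Mmp2 had intensities of 6186 and 6165 on the vehicle arrays, 6299 (1 h), 6239 (3 h), 6665 (6 h), 5339 (12 h), 5475 (18 h) and 6008 (24 h). On this probe set, the brighter of 2, the early arrays lay above and the late arrays below both vehicle arrays. The log2 differences from the vehicle mean were only 0.03 at 1 h and 0.01 at 3 h. The other Mmp2 probe set, also above the level filter, lay at -0.01 at 3 h, between its vehicle arrays at 0.04 and -0.04. It lay above both at 1 and 6 h and below both at 12, 18 and 24 h. Fibroblast markers (13 of 13 tested) averaged 0.10 at 6 h and -0.09 at 12 h against the vehicle mean, and their summed intensity was 89090 to 95997 in the early window, 83540 to 89057 in the late window and 89493 to 90093 on the vehicle arrays. Their part in the values of Mmp2 and Mmp14 was not tested, and in whole tissue fewer cells of a type and less RNA per cell cannot be told apart.

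The stromelysin Mmp3 lay at -0.23 at 3 h, -0.22 at 6 h and -0.18 at 12 h, below both vehicle arrays, and at 0.16 at 18 h and 0.07 at 24 h, above both. Mmp10, the other tested stromelysin, had intensities between 211 and 235 on the E2 arrays, against 213 and 178 on the vehicle arrays. Its mean log2 level of 7.73 lay just above the filter. Mmp7, the epithelial matrilysin, lay at -0.14 at 3 h and 0.19 at 24 h. Mmp9, the gelatinase of leukocytes, lay between -0.10 and 0.12, Mmp23 between -0.10 and 0.11 and the membrane-type Mmp24 between -0.12 and 0.06. The other probe set of Mmp9, just below the level filter with a mean log2 level of 7.66, lay between -0.28 and 0.03, lowest at 24 h. Of the 9 Mmp members of chromosome 9, 4 were tested and 0 of these passed in any window comparison. None of the 4 collagenase genes (Mmp1a, Mmp1b, Mmp8 and Mmp13) reached the level filter.

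Mmp11, the stromelysin typical of stroma next to epithelium, fell just short of the filter, with a mean log2 level of 7.63. Its intensity was 255 and 221 on the vehicle arrays, 190.3 (1 h), 195 (3 h), 186 (6 h), 174 (12 h), 177 (18 h) and 193 (24 h). All 6 E2 arrays lay below both vehicle arrays, by 0.28 to 0.45 on the log2 scale from the vehicle mean. With no level filter the early window stood at -0.32 ± 0.0772 (SE) against vehicle (adjusted p = 0.442) and the late window at -0.39 ± 0.0772 (adjusted p = 0.674). Mmp11 has 1 probe set.

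Mmp12, the macrophage metalloelastase, Mmp19 and Adam8, a sheddase of leukocytes, varied widely, between the vehicle arrays too. Mmp12 had intensities of 658 and 423 on the vehicle arrays, 528 (1 h), 751 (3 h), 578 (6 h), 310.3 (12 h), 583 (18 h) and 636 (24 h). The 3 h array lay above both vehicle arrays and the 12 h array below both, while the vehicle arrays were 0.64 apart on the log2 scale. Macrophage markers (14 of 14 tested) lay at -0.03 at 3 h and -0.15 at 12 h, with a summed intensity of 48227 to 54150 in the early window, 45300 to 49187 in the late window and 49123 to 49532 on the vehicle arrays; their part was not tested. Mmp19 lay at 0.55 at 6 h with vehicle arrays 0.44 apart, and its second probe set lay at 0.31. Adam8 lay at -0.40 at 12 h with vehicle arrays 0.41 apart.

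**Figure D5:**
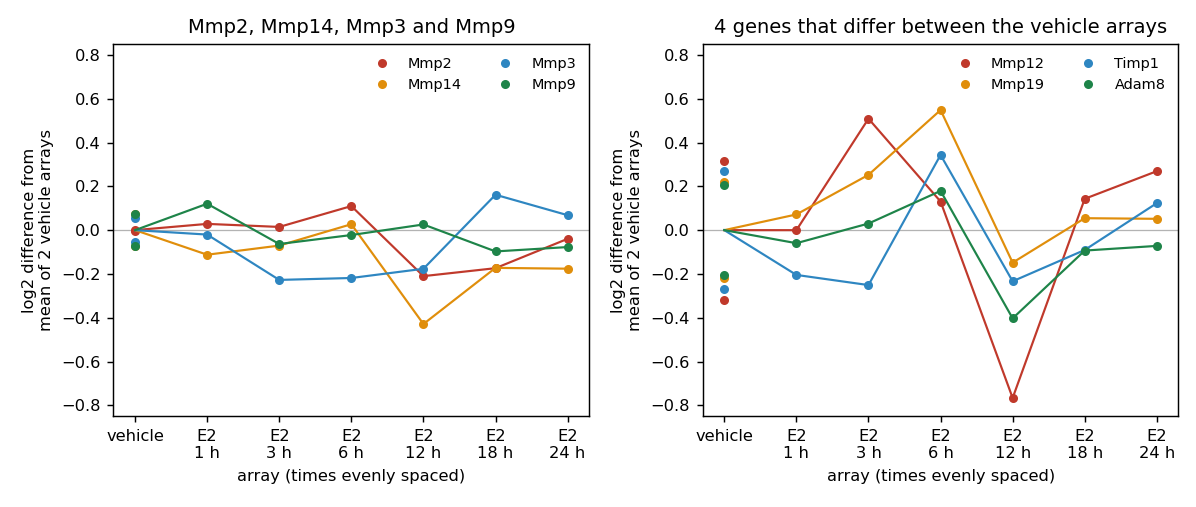
log2 difference from the mean of the 2 vehicle arrays (y axis) by array (x axis); points are single arrays and lines start at the vehicle mean. Left, Mmp14 is lowest at 12 h, at -0.43, and Mmp2 at -0.21; right, the vehicle points of Mmp12, Mmp19, Timp1 and Adam8 lie between 0.41 and 0.64 apart.

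The sheddase-type ADAM genes, 8 of 9 tested, lay between -0.40 and 0.18 at all times, Adam8 with the lowest and the highest of these values. Adam10, which cuts Notch and cadherins, had intensities of 2408 and 2455 on the vehicle arrays, 2550.1 (1 h), 2232 (3 h), 2077 (6 h), 2291 (12 h), 2338 (18 h) and 2336 (24 h). It lay below both vehicle arrays from 3 h on, farthest at 6 h, where its 3 probe sets above the filter lay between -0.24 and -0.14. Adam17, which releases amphiregulin and other ligands of the epidermal growth factor receptor, lay between -0.09 and 0.01 at all times. Adam12, a meltrin known from fibroblasts and muscle precursors, lay between -0.14 and 0.15. Adam19 had an intensity of 611 at 1 h and between 563 and 592 on the 5 later arrays, against 678 and 610.2 on the vehicle arrays, so that every array from 3 h on lay below both. Adam9, Adam15 and Adam33, ubiquitous or stromal sheddases, lay between -0.10 and 0.15. The other probe set of Adam33, below the level filter, lay at -0.34 at 3 h, -0.35 at 6 h and between -0.25 and -0.05 at the other times. In the window comparisons the 8 genes lay between -0.24 and 0.09, and 0 passed.

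The neural, catalytically inactive ADAM genes Adam11, Adam22 and Adam23 were all tested, and in the late window they lay 0.14, 0.13 and 0.17 above vehicle without passing. The value of Adam22 was 0.07 without vehicle 2 and 0.03 as the mean of its probe sets: its other probe set, just below the level filter with a mean log2 level of 7.67, lay at -0.18 at 12 h, -0.07 at 18 h and 0.08 at 24 h. With the skeletal muscle markers as a covariate, in the fit that can hardly tell them and the late window apart, Adam11 lay at 0.24 and Adam22 at 0.08. Adam23 had intensities of 386 and 378 on the vehicle arrays, 370.3 (1 h), 364 (3 h), 337.5 (6 h), 429 (12 h), 455 (18 h) and 409 (24 h). Its early arrays lay below and its late arrays above both vehicle arrays. Its other 2 probe sets, below the level filter, lay at -0.06 and 0.08 at 12 h and at 0.19 and 0.22 at 18 h. They went in opposite directions at 3 h, at -0.21 and 0.03, and at 6 h, at -0.13 and 0.16. Markers of nerve and Schwann cells (5 of 7 measured genes tested) averaged between -0.05 and -0.02 at all E2 times. Of 16 ADAM genes of the reproductive tract and other tissues 3 were tested (Adam1b, Adam4 and Adam21), and of 10 markers of spermatogenic cells 2 reached the filter.

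The ADAMTS-like proteins lack the protease domain. Adamtsl4 had intensities of 1184 and 1208 on the vehicle arrays, 1251 (1 h), 1042 (3 h), 874 (6 h), 912 (12 h), 958 (18 h) and 1127 (24 h). It lay below both vehicle arrays from 3 to 24 h and was lowest at 6 h, at -0.45. Adamtsl1, with a mean log2 level of 7.75 just above the filter, lay at 0.47 at 6 h and between 0.00 and 0.12 at the other times. Its other probe sets, below the filter, lay at 0.43 and 0.11 at 6 h and at -0.29 and -0.03 at 1 h. Adamtsl2 and Adamtsl3 lay between -0.18 and 0.12. Adamtsl5 had intensities between 247 and 249 on the 3 early arrays, all below the 305 and 261 of the vehicle arrays. The skeletal muscle markers averaged 1.25 above the vehicle mean at 6 h and between 0.21 and 0.94 at the other times. With these markers as a covariate the early difference of Adamtsl1 turned to -0.06, against 0.23 without, and it was 0.10 without the 6 h array. The 29 members below the filter, Adamts3, the 1 measured procollagen-processing gene, among them, lay between -0.57 and 0.37 at all times, and 0 of them were 1.5-fold from both vehicle arrays. They were 13 of the 16 ADAM genes of the reproductive tract and other tissues, Adam28, 7 ADAMTS genes (Adamts3, Adamts6, Adamts7, Adamts16, Adamts18, Adamts19 and Adamts20) and 8 Mmp genes (Mmp11, Mmp16, Mmp17, Mmp20 and the collagenases).

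Genes that act with these proteases were read from 5 lists. In the plasminogen system, which activates several matrix metalloproteinases, 7 of 11 measured genes were tested, and in the list of cathepsins and cystatins 16 of 19. The lists of other activators and regulators, of proteoglycans and other ADAMTS substrates, and of ADAM substrates and partners held 15, 10 and 16 tested genes. In each list 0 genes passed in any window comparison. List medians lay between 0.01 and 0.07 in the early window, between -0.10 and 0.00 in the late window and between -0.12 and -0.01 for late against early, beside 0.01, -0.01 and -0.03 for all genes.

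Only Tmprss2, a membrane serine protease of epithelium, and Cdh1, the epithelial cadherin that Adam10 cuts, lay 1.5-fold from both vehicle arrays at some time among the 64 tested genes of these lists, or 3.12%, against 1.47% of all genes. Tmprss2 lay at -1.30 at 3 h and -1.28 at 6 h on the log2 scale, and Cdh1 at -0.85 at 6 h. Luminal epithelial markers, the list that includes Cdh1, averaged -0.24 at 3 h and -0.27 at 6 h, and 0.24 at 12 h (16 of 16 tested). Their summed intensity was 10708 to 11915 in the early window, 14166 to 16034 in the late window and 12474 to 12848 on the vehicle arrays, and their part in the values of Tmprss2 and Cdh1 was not tested. In the plasminogen system the intracellular serpin Serpinb6a lay at 0.42 at 6 h, and Serpinb2, which inhibits plasminogen activators, at 0.92 at 24 h with vehicle arrays 0.82 apart. Htra3, a secreted serine protease of stroma, lay at 0.33 at 3 h and 0.39 at 6 h, and Fbln2, a matrix protein that ADAMTS proteases cut, at 0.22 and 0.39. Rhbdf2, a partner that Adam17 needs to reach the cell surface, lay at 0.40 at 3 h and between 0.01 and 0.18 at the other times. Ctsk and Ctss, cathepsins of osteoclasts and of antigen-presenting cells, were lowest at 12 h, at -0.30 and -0.29, the array on which Mmp14, Mmp12 and Adam8 were lowest too. Biglycan (Bgn), a small matrix proteoglycan, lay at -0.39 on that array.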

How the data were processed

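Total RNA was extracted with Trizol and hybridised as biotin-labelled cRNA to 1-colour Affymetrix arrays, per the labels. The deposited values are intensity values on a linear scale, from 13.8 to 23591 for 45101 probe sets. Per the submitters' processing notes GCOS 1.0 and RMA were used, in roles that are not given in the sources used here. Array medians lay between 174 and 180.49, and these deposited values were used without further scaling, on the log2 scale. Precision depends on how few the arrays are.

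After removal of 64 control probe sets, 34945 probe sets had 1 gene symbol, 932 several and 9160 none. The 70 members matched RefSeq (GRCm38.p6) symbols through Entrez identifiers, and 5 further probe sets that name a member beside another gene were not used. Linear models with 3 windows and 5 residual degrees of freedom, or with 7 group means and 1, were fitted in limma 3.58.1 (R 4.3.3) with a mean-variance trend, and p-values, all two-sided, were adjusted by Benjamini-Hochberg over 10916 genes. A call is an adjusted p below 0.05. The windows count change within a window as spread, and p-values reflect differences among these 8 samples only, whose origin may be technical. The members, lists and thresholds were chosen with earlier results of these data known. Named members were those 1.5-fold from both vehicle arrays, up to 5 rises and 5 falls per window comparison whose arrays did not overlap, a fixed set of well-known members and the brightest 3 of each role. From each list of partners, genes 1.5-fold from both vehicle arrays and the 2 with the largest window difference were considered. Adamts2, of the fixed set, was not analysed here. Alternatives changed the filter, normalization, probe set rule, variance model, covariates and arrays used.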

Additional observations from a re-analysis of the deposited data

Results flagged for a closer look

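Adamts1 differed between the early and the late window by the direct comparison of the windows, at -0.75 on the log2 scale in the late window relative to the early one (adjusted p = 0.0406 by limma). Each of the 3 late arrays lay below each of the 3 early arrays. Adamts1 passed in 9 of 18 settings, with an adjusted p of up to 0.219, and did not pass without either vehicle array or without any one of the late arrays. The windows and thresholds were chosen with earlier results of these data known.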

How the results depend on the processing

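No paired analysis was possible, since each E2 time had 1 array and no sample title links an E2 array to a vehicle array. For the early window against vehicle 0 members were called under all settings that kept every array, and leaving out single arrays gave 0 to 1, the 1 being Adamts1 without the 1 h or the 3 h array (49 and 3 genes in all). Among all genes 0 were called, against 12 with the skeletal muscle covariate, 27 with the B lymphocyte covariate and 8 without the 6 h array. For the late window against vehicle the count was 0 throughout, 0 to 0 with single arrays left out. For late against early it was 1, and 0 to 2 with single arrays left out. It was 0 with quantile normalization, 0 with the mean of the probe sets, 0 with robust variances and 0 for a slope on log2 hours. It was 6 with the skeletal muscle covariate (Adam23, Adamts1, Adamts15, Adamtsl2, Mmp7 and Timp3), where 10.3% of all genes were called, 1128 against 60. With the B lymphocyte covariate it was 1, Mmp14 in place of Adamts1, among 0.302% of all genes. All genes called were 32 with quantile normalization, 23 with the mean of the probe sets, 33 with the B lymphocyte covariate, 9 for the slope and 0 to 232 with single arrays left out. The count of member and time pairs was 2 at 1.5-fold (0.42% of all pairs), 3 with median centring (0.412%), 1 at 2-fold (0.0901%), 1 with the mean of the probe sets (0.359%), and 4 to 8 with 1 vehicle array left out (0.599% to 0.912%). Adamtsl1 turned to -0.064 in the early window with the muscle covariate. It was the 1 reversal among the 454 alternative values computed for named members in the comparisons that named them. Of these values, 435 kept their direction and call. Window members were named because their arrays did not overlap, so leaving out 1 array could not reverse them. Most were not called in the main fit, so a kept call mostly means that a member stayed uncalled. A smaller size also counts as kept: Adam22 went from 0.13 to 0.03 in the late window against vehicle with the mean of the probe sets. Outside the comparisons that named it, the late difference of Adamts1 from vehicle was 0.03, and -0.03 without vehicle 2. The causes were not tested. The mean of the probe sets took Adamts5 to -0.46 at 3 h, since it adds the dim probe set.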
